A study of Homo sapiens with 10 samples.

Results

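C/D box snoRNAs are short nucleolar RNAs that guide 2'-O-methylation of ribosomal and spliceosomal RNA. They were read from the long RNA libraries of a study that set BEAS-2B cells carrying a TAF1C vector against BEAS-2B cells carrying an empty vector. Members were the genes that the count tables class as snoRNA and whose symbol starts with SNORD, with rows of 1 symbol summed and at least 10 counts over the 5 libraries. Of 265 such symbols (387 rows), 103 met the minimum, 77 had 1 to 9 counts and 85 had none. These 103 stood among 55773 gene symbols in all, and their summed counts chose them, so their levels are given as a description. BEAS-2B is an immortalised human bronchial epithelial line. There were 3 long RNA libraries labelled TAF1C, from stable cells made with a pCMV6 vector for TAF1C, and 2 empty vector libraries, all kept under G418 selection. The TAF1C protein belongs to SL1, which recruits RNA polymerase I to ribosomal DNA promoters. The labels do not say whether replicates were separate cultures or whether a line was 1 clone, so p-values measure the spread between these libraries.

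Most human C/D box snoRNAs lie in introns of other genes and are released from the spliced intron by exonucleases, so a snoRNA and its host share 1 promoter. Each binds the proteins NOP58, NOP56, SNU13 and the methyltransferase fibrillarin (FBL). A few, such as U3, U14 and U22, take part in cleavage or folding of the ribosomal RNA precursor, and others, such as the SNORD116 family, have no known RNA target.

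Many snoRNA hosts are genes of the translation machinery whose transcripts begin with a run of pyrimidines. The starts of 8 hosts on which the results turn are shown for that reason, from 20 bases before to 10 bases after the annotated start, read 5′ to 3′ along the gene from the RefSeq promoters of GRCh38.p14. Capitals mark CTTTC where it lies within 10 bases of the start on either side.
RPS3, host of SNORD15B, chr11:75399498-75399527, plus strand: cttccgcccgcgagccacttcCTTTCcttt
ZFAS1, host of SNORD12, SNORD12B and SNORD12C, chr20:49278622-49278651, plus strand: ggttcaggaagccattcgttCTTTCgcgtc
RPS12, host of SNORD100 and SNORD101, chr6:132814549-132814578, plus strand: ggcatgcgtgcggatgaggcctCTTTCcct
RPS13, host of SNORD14A, chr11:17077658-17077687, minus strand: ggcgtttccactctcgctctcCTTTCgttg
SNX5, host of SNORD17, chr20:17968785-17968814, minus strand: cccccgcaccgaaacgcggtCTTTCtctag
HSPA8, host of SNORD14E, chr11:123062127-123062156, minus strand: ggtggcgggcggaaaccggtctcattgaac
SNHG1, host of SNORD22, chr11:62855876-62855905, minus strand: tctccccggggagattcgttctcatttttc
SNHG14, host of SNORD108 and the SNORD116 copies, chr15:24823588-24823617, plus strand: aagcgcagttgtcctcctgcgccgacctcg
The letters CTTTC stood in this window in 8 of the 30 member hosts with a single listed start (26.7%) and in 3.10% of 35116 listed starts. The reverse complement GAAAG stood in none of the 30 and in 1.97% of all. A match of letters is a description of the window and not a binding site.

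Some facts of the libraries bear on every comparison. The libraries labelled TAF1C held 34212883 to 37533366 gene counts, and the empty vector libraries held 22809601 and 28476151. TAF1C mRNA averaged 62.8 ± 4.04 CPM (counts relative to library size, scaled between libraries by TMM) in the TAF1C-labelled libraries and 70.5 ± 9.32 CPM in the empty vector libraries (SD, n = 3 and n = 2), a log2 fold change of -0.17 (edgeR adjusted p = 0.353). The label was therefore not matched by more of that transcript, and each direction given here is between libraries as labelled. Summed levels of 9 epithelial markers were 1483, 1369 and 1477 CPM in the TAF1C-labelled libraries, against 389 and 378 CPM with the empty vector. KRT7 and KRT8 carried that sum, and of the 8 tested markers 4 rose and 2 fell, EPCAM (log2 fold change -5.14) and ITGB4 (log2 fold change -1.16). EPCAM reached 1 CPM, the minimum for the test, only in the empty vector libraries, so its fall only describes it. Summed levels of 13 photoreceptor markers were 12.8, 9.10 and 11.7 CPM in the TAF1C-labelled libraries, against 1236 and 1234 CPM with the empty vector. Those of 8 neuron markers were 6.19, 6.39 and 6.07 CPM in the TAF1C-labelled libraries, against 261 and 86.01 CPM with the empty vector. The photoreceptor gene GNGT1 was at 0 in TAF1C-labelled libraries 1 and 3, and the neuron gene STMN2 at 0 in empty vector library 2. The log2 differences between the empty vector libraries had an SD of 0.872 over all tested genes, against 0.201 to 0.228 for pairs of TAF1C-labelled libraries. The part of these differences in the snoRNA results was not tested. In such bulk samples fewer cells of a type and less RNA per cell cannot be told apart.

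SNORD17, thought to guide methylation of 28S rRNA, was the most abundant member, with 5058, 4446 and 4867 counts in the TAF1C-labelled libraries and 3665 and 3903 counts in the empty vector libraries. It made up 54.8%, 51.8% and 54.9% of all member counts in the TAF1C-labelled libraries and 59.5% and 55.5% in the empty vector libraries. Its level overlapped between the groups, at 141 ± 10.0 CPM in TAF1C-labelled libraries and 136 ± 1.76 CPM with the empty vector (log2 fold change 0.045, edgeR adjusted p = 0.777). The sign of this small difference turned under other scalings. SNORD15B came next, with 23.6 CPM on average in the TAF1C-labelled libraries and 11.3 CPM with the empty vector, and all other members were lower than these. Per 100 bases of RefSeq length SNORD17 stood at 59.3 CPM in the TAF1C-labelled libraries and 57.5 CPM with the empty vector, and SNORD15B at 16.2 CPM in the TAF1C-labelled libraries and 7.71 CPM with the empty vector. SNORD104, SNORD46, SNORD12C and SNORD12 followed on that scale by their mean over the 5 libraries, an order that differed between the groups. Depth was thin below these: 65 of the 103 members had under 100 counts over the 5 libraries, and the median total was 57. Lengths of the 83 members with 1 RefSeq match ran from 65 to 237 bases, with a median of 94.

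**Figure D1:**
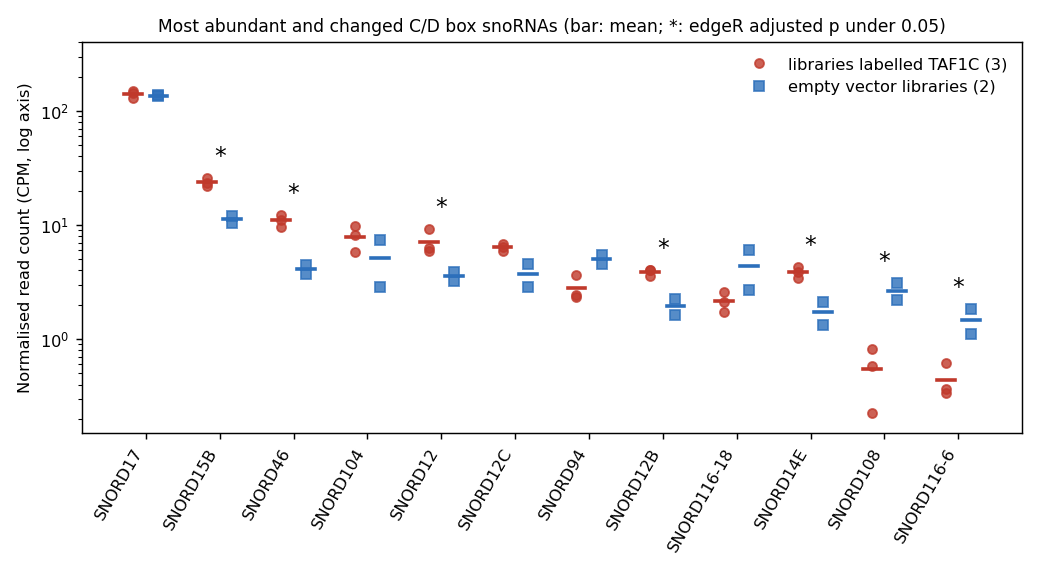
Normalised read count in CPM on a log axis for the 10 most abundant members and the members past the test, by library (circles, 3 libraries labelled TAF1C; squares, 2 empty vector libraries; bars, group means; asterisks, edgeR adjusted p under 0.05). SNORD17 is level between the groups near 140 CPM, SNORD15B and SNORD46 are higher in every TAF1C-labelled library, and SNORD108 and SNORD116-6 are lower in every one.

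Summed over members, the share of counts overlapped between the groups. As a share of all counts they summed to 0.0246%, 0.0235% and 0.0259% in the TAF1C-labelled libraries and to 0.0270% and 0.0247% in the empty vector libraries. The means of 0.0247% in the TAF1C-labelled libraries and 0.0258% with the empty vector did not differ beyond the spread (exact two-sided permutation p = 0.4, where 0.2 is the smallest that 3 against 2 libraries allow). Without SNORD17 the means were 0.0114% in the TAF1C-labelled libraries and 0.0110% with the empty vector (exact permutation p = 0.2). With TMM scaling the members summed to 261, 250 and 272 CPM in the TAF1C-labelled libraries and 227 and 248 CPM with the empty vector, so the 2 scalings order the groups differently.

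Of the 103 members, 35 reached 1 CPM in at least 2 libraries and entered the test over 18402 genes, and 68 did not. Of these 35, 5 rose, against 15.9% of all tested genes, and 2 fell, against 22.6% of all tested genes, so the called members were no larger a share than the background of 38.5% called in either direction. An unadjusted p under 0.05 (edgeR) was reached by 12 of the 35, beside 9105 of all 18402 tested genes. Without TAF1C-labelled library 1, 2 or 3 there were 1, 2 and 1 members that rose and 0 that fell. The shares of all tested genes were then 5.84%, 6.48% and 5.94% raised, and 11.3%, 10.7% and 11.1% lowered. Leaving out an empty vector library left 1 in that group, so only the median log2 fold change is given here. For tested members it was 0.23 without empty vector library 1 and 0.94 without empty vector library 2. Over all tested genes it was -0.00028 and -0.025. The median log2 fold change of the 35 was 0.53, beside -0.10 over all tested genes. Scaling by library totals moved the median of all genes to -0.32 and that of the tested members to 0.30. When every gene with 10 or more counts was tested in place of the CPM minimum, 2 of the 103 members rose (3.67% of 40126 genes did) and 2 fell (8.29% did), and the member median was -0.092, beside -0.25 over all those genes. The libraries of the groups did not overlap for 53 members, 20 higher (17% of the 40126 genes) and 33 lower (26.6%) in the TAF1C-labelled libraries, where 43.6% of those genes did not overlap in either direction. Of the 35 tested members 14 were higher without overlap (29.8% of the 18402 genes) and 9 lower (34.4%), with 64.2% of those genes in either direction.

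The clearest rises were those of SNORD46 and SNORD15B, which both guide methylation of 28S rRNA. SNORD46 had levels of 11.03, 9.66 and 12.3 CPM in the TAF1C-labelled libraries, against 3.72 and 4.51 CPM with the empty vector. Its mean was 2.67-fold higher in the TAF1C-labelled libraries (log2 fold change 1.42 ± 0.24 SE, edgeR adjusted p = 0.00829). Every TAF1C-labelled library was above both empty vector libraries, but the call was lost without TAF1C-labelled library 1 (adjusted p = 0.0514) or library 3 (adjusted p = 0.0556). SNORD15B, within RPS3, had 913, 799 and 711 counts in the TAF1C-labelled libraries and 283 and 343 counts in the empty vector libraries. Its level was 2.10-fold higher in the TAF1C-labelled libraries, at 23.6 ± 2.03 CPM, than with the empty vector, at 11.3 ± 1.17 CPM (log2 fold change 1.07 ± 0.17 SE, edgeR adjusted p = 0.00633). It was the member whose adjusted p stayed under 0.05 in every setting tried, the highest being 0.0477. The near copy SNORD15A, in the same host, had 3, 1 and 5 counts in the TAF1C-labelled libraries and 0 and 4 counts with the empty vector, too few for a comparison.

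The 3 snoRNAs of ZFAS1, a noncoding RNA that overlaps the start of ZNFX1, were all higher in each TAF1C-labelled library than in either empty vector library. Together they summed to 16.3, 20.1 and 15.9 CPM in the TAF1C-labelled libraries, against 7.74 and 10.7 CPM with the empty vector. SNORD12 rose to 7.17 ± 1.83 CPM in the TAF1C-labelled libraries, against 3.54 ± 0.423 CPM with the empty vector (log2 fold change 1.02 ± 0.31 SE, edgeR adjusted p = 0.0479). SNORD12B rose to 3.88 ± 0.248 CPM in the TAF1C-labelled libraries, against 1.94 ± 0.448 CPM with the empty vector (log2 fold change 0.998 ± 0.30 SE, edgeR adjusted p = 0.0472). SNORD12C, described in cancer, had 6.38 ± 0.454 CPM in the TAF1C-labelled libraries and 3.73 ± 1.21 CPM with the empty vector, and its log2 fold change of 0.77 did not pass the test (edgeR adjusted p = 0.0909). Both calls were lost with library totals (adjusted p of 0.0875 for SNORD12 and 0.0796 for SNORD12B) and without any 1 of the TAF1C-labelled libraries (adjusted p of 0.105 to 0.155 and of 0.133 to 0.159). The host ZFAS1 itself had 168 ± 6.69 CPM in the TAF1C-labelled libraries and 112 ± 40.1 CPM with the empty vector (log2 fold change 0.59, edgeR adjusted p = 0.0918).

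Copies of U14, which pairs with 18S rRNA and is needed for its processing in yeast, sat in different hosts. SNORD14E, within the chaperone gene HSPA8, had 122, 134 and 141 counts in the TAF1C-labelled libraries and 36 and 60 counts in the empty vector libraries. All 3 TAF1C-labelled libraries were above both empty vector libraries, with means of 3.89 ± 0.437 CPM in the TAF1C-labelled libraries and 1.72 ± 0.557 CPM with the empty vector (log2 fold change 1.18 ± 0.34 SE, edgeR adjusted p = 0.0414). The call did not hold without any 1 of the TAF1C-labelled libraries (adjusted p of 0.109 to 0.146). SNORD14A, within RPS13, had 73, 82 and 65 counts in the TAF1C-labelled libraries and 49 and 33 counts with the empty vector. Its scaled levels were also higher in every TAF1C-labelled library than in both empty vector libraries. The log2 fold change of 0.53 ± 0.35 SE did not pass the test (edgeR adjusted p = 0.269). A difference between SNORD14E and SNORD14A was not tested. The sources used here do not say how reads that match several copies were counted, so levels of near-identical copies are uncertain.

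The members were also grouped by the kind of gene that contains them. The fit with every gene of 10 or more counts was used so that each of the 103 had a value. All 12 members within genes of ribosomal proteins or translation factors had positive log2 fold changes, with a median of 0.78, and for 8 of them the groups did not overlap with the TAF1C-labelled libraries higher (17% of all genes with 10 or more counts). They summed to 47.5, 44.6 and 46.5 CPM in the TAF1C-labelled libraries, against 19.3 and 25.2 CPM with the empty vector. With library totals 11 of the 12 stayed positive, and without empty vector library 1 only 8 of 12 did. The median was 1.98 without empty vector library 2. They included SNORD15B, which passed, SNORD37 in EEF2, with 19, 18 and 17 counts in the TAF1C-labelled libraries and 4 and 6 counts with the empty vector, and SNORD66 in EIF4G1, with 8, 5 and 8 counts in the TAF1C-labelled libraries and 1 and 1 with the empty vector. SNORD66 has been described in lung cancer, and its log2 fold change of 2.48 did not pass (edgeR adjusted p = 0.223).

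Of the 11 members in noncoding hosts other than SNHG14, 10 were positive, with a median of 0.70 (0.38 without empty vector library 1 and 1.56 without empty vector library 2). SNORD78 in GAS5, another snoRNA described in lung cancer, had 87, 129 and 111 counts in the TAF1C-labelled libraries and 37 and 67 counts with the empty vector (log2 fold change 0.78 in the test of 18402 genes, edgeR adjusted p = 0.163). The 11 members in genes of nucleolar proteins (NOP58, NCL, GNL3, WDR43, PPAN and TAF1D) divided into 7 positive and 4 negative, with a median of 0.35 (0.056 without empty vector library 1 and 0.66 without TAF1C-labelled library 1). The 24 in other protein-coding genes had a median of 0.13, which became -0.22 with library totals and -0.091 without empty vector library 1, and the 21 with no host assigned had a median of -0.56 (-0.24 without empty vector library 2). All 24 members within SNHG14 were negative.

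**Figure D2:**
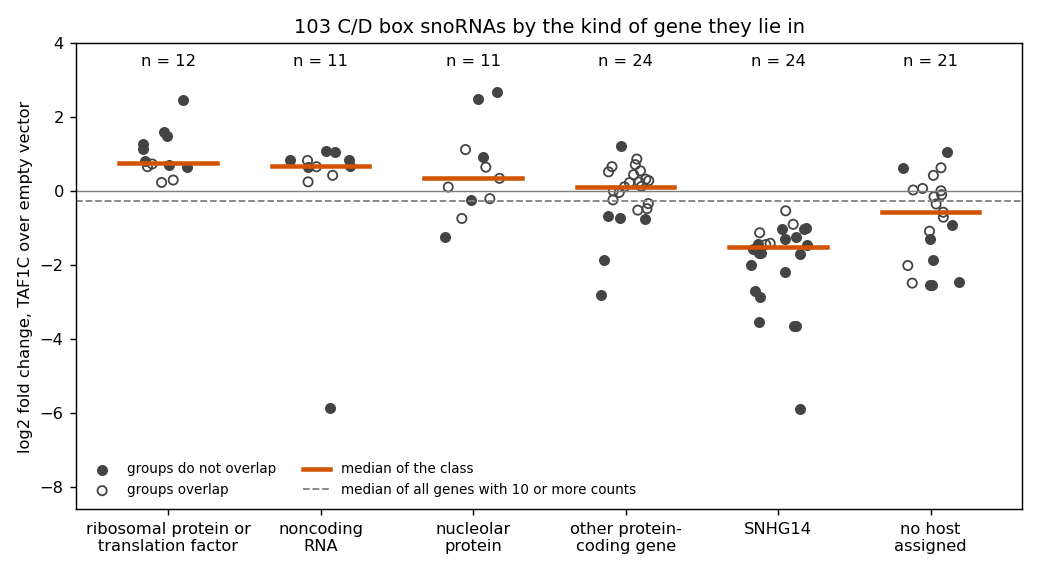
Log2 fold change of TAF1C-labelled over empty vector libraries for the 103 members by the class of gene that contains them, from the fit of genes with 10 or more counts (filled, groups do not overlap; open, groups overlap; orange bars, class medians; dashed line, median of all genes at -0.25). The class medians run from 0.78 in genes of the translation machinery to -1.51 in SNHG14, and the fitted values of the lowest points, SNORD22 and SNORD116-16, rest on counts at or near 0 in the TAF1C-labelled libraries.

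The SNHG14 transcript spans the imprinted region of chromosome 15 that is lost or silent in Prader-Willi syndrome, is transcribed from the paternal copy, and is best known from neurons. Its 24 members, of which 22 were SNORD116 copies, summed to 8.29, 9.33 and 8.99 CPM in the TAF1C-labelled libraries, against 19.8 and 25.8 CPM with the empty vector. In 19 of the 24 every TAF1C-labelled library was below both empty vector libraries, beside 26.6% of all genes with 10 or more counts. Their median log2 fold change was -1.51, also with SNORD116-16 at its bound, and that of the 6 tested members was -1.09. Several copies met the 10-count minimum through the empty vector libraries, where they are high, so these counts and medians only describe them. SNORD108, an orphan snoRNA, had 8, 28 and 19 counts in the TAF1C-labelled libraries and 84 and 63 counts in the empty vector libraries. It fell to 0.542 ± 0.297 CPM in the TAF1C-labelled libraries, against 2.66 ± 0.619 CPM with the empty vector (log2 fold change -2.29 ± 0.56 SE, edgeR adjusted p = 0.0246). SNORD116-6 had 13, 21 and 11 counts in the TAF1C-labelled libraries and 30 and 52 counts with the empty vector. It fell to 0.439 ± 0.151 CPM in the TAF1C-labelled libraries, against 1.47 ± 0.514 CPM with the empty vector (log2 fold change -1.73 ± 0.47 SE, edgeR adjusted p = 0.0346). These were the only members of the cluster past the test of 18402 genes, in which 6 of the 24 took part, and neither call held without any 1 of the TAF1C-labelled libraries (adjusted p of 0.0544 to 0.0891 for SNORD108 and 0.0638 to 0.121 for SNORD116-6). Both met the minimum of 1 CPM in 2 libraries through the empty vector libraries alone, where they are high. Their calls therefore only describe them.

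The most abundant copies depended on which empty vector library was used. SNORD116-18 had 91, 73 and 56 counts in the TAF1C-labelled libraries and 73 and 171 counts in the empty vector libraries (log2 fold change -1.03, edgeR adjusted p = 0.109). SNORD116-19 had 83, 66 and 68 counts in the TAF1C-labelled libraries and 56 and 120 counts with the empty vector, and its scaled levels overlapped (log2 fold change -0.57, edgeR adjusted p = 0.290). In both, empty vector library 2 was far above empty vector library 1, and without library 2 SNORD116-18 had a log2 fold change of -0.36 and SNORD116-19 one of 0.0058. Without library 1 the log2 fold changes were -1.56 for SNORD116-18 and -1.06 for SNORD116-19. Either fit left 1 empty vector library, so only the log2 fold changes are given. SNORD116-16 had 0 counts in each TAF1C-labelled library and 5 and 8 counts with the empty vector, at least 7.98-fold lower in the TAF1C-labelled libraries against a floor of 3 counts over that group. The remaining copies had 10 to 232 counts over the 5 libraries. Without empty vector library 2, 19 of the 21 members of the cluster that still met the minimum were negative.

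**Figure D3:**
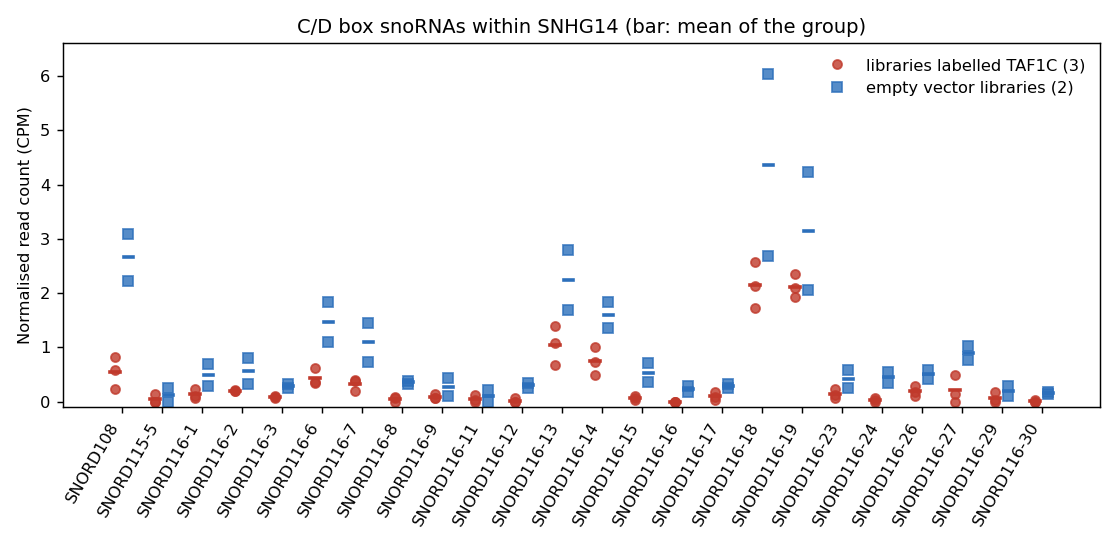
Normalised read count in CPM of the 24 members within SNHG14 by library (circles, 3 libraries labelled TAF1C; squares, 2 empty vector libraries; bars, group means). Most copies lie below 1 CPM in the TAF1C-labelled libraries, and SNORD116-18 and SNORD116-19 show the widest gap between the empty vector libraries.

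SNHG14 itself fell to 46.9, 46.4 and 47.2 CPM in the TAF1C-labelled libraries, against 168 and 174 CPM with the empty vector (log2 fold change -1.87 ± 0.10 SE, edgeR adjusted p = 0.000268). SNRPN, the coding gene at the start of the same imprinted region, fell to 1.09 ± 0.0875 CPM in the TAF1C-labelled libraries, against 7.69 ± 2.36 CPM with the empty vector (log2 fold change -2.81, edgeR adjusted p = 0.00213). The TAF1C-labelled libraries alone would not have brought SNRPN to the minimum of 1 CPM in 2 libraries. It met that minimum with the empty vector libraries, where it is high, so its call only describes it. The noncoding gene PWAR6 of the region fell to 3.71 ± 0.439 CPM in the TAF1C-labelled libraries, against 33.4 ± 8.19 CPM with the empty vector (log2 fold change -3.17, edgeR adjusted p = 0.000587). Rows of the region that the tables class as other than snoRNA moved the same way. SNORD116-20, classed as lincRNA, had a log2 fold change of -2.09 (edgeR adjusted p = 0.000438), SNORD109A, classed as sense intronic, one of -1.66 (edgeR adjusted p = 0.00874), and the sense intronic row of SNORD64 one of -2.42 (edgeR adjusted p = 0.00289). In the empty vector libraries, where SNHG14 was 168 and 174 CPM, the neuron marker sum was 261 and 86.01 CPM. The photoreceptor marker sum was 1236 and 1234 CPM there. The part of other cell types in this fall was not tested.

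SNORD22 and SNORD94 are set beside their hosts here, and neither difference from the host was tested. SNORD22 (U22), needed for 18S rRNA processing in Xenopus, had 0, 0 and 2 counts in the TAF1C-labelled libraries and 63 and 21 counts in the empty vector libraries. The ratio of TAF1C-labelled over empty vector levels was 0.0129, with an exact counting interval of 0.00154 to 0.0482, and the log2 fold change was -5.86 ± 1.08 SE (edgeR adjusted p = 0.0130 among genes of 10 or more counts). SNORD22 met the 10-count minimum through the empty vector libraries alone, where it is high, so this test and interval only describe it. It had not reached 1 CPM in 2 libraries, and it did not pass without TAF1C-labelled library 1 (adjusted p = 0.0780) or library 2 (adjusted p = 0.0853). Its host SNHG1 overlapped between the groups, with 214, 232 and 215 CPM in the TAF1C-labelled libraries and 98.6 and 229 CPM with the empty vector (log2 fold change 0.43, edgeR adjusted p = 0.366). SNORD94, which guides methylation of the spliceosomal U6 RNA, had 128, 81 and 80 counts in the TAF1C-labelled libraries and 148 and 130 counts with the empty vector. Its levels did not overlap, at 2.81 ± 0.701 CPM in the TAF1C-labelled libraries and 5.02 ± 0.617 CPM with the empty vector, but the log2 fold change of -0.83 did not pass (edgeR adjusted p = 0.0853). Its host PTCD3 had a log2 fold change of -0.12 (edgeR adjusted p = 0.676).

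Some symbols pooled more than 1 row, which applied to 25 of the 103 members. SNORD11 had 25, 34 and 36 counts in the TAF1C-labelled libraries and 97 and 43 counts with the empty vector. Its difference came from a second row with 0, 0 and 0 counts in the TAF1C-labelled libraries and 68 and 7 counts with the empty vector. The row that carries the name in the gene table used here held 25, 34 and 36 counts in the TAF1C-labelled libraries and 29 and 36 counts with the empty vector. The symbol SNORD112 pooled 48 rows, 26 of them with counts and none carrying that name in the gene table used here. It had 33, 19 and 15 counts in the TAF1C-labelled libraries and 31 and 41 counts with the empty vector, which cannot be assigned to 1 locus. SNORD104 had 292, 200 and 317 counts in the TAF1C-labelled libraries and 77 and 209 counts with the empty vector, so that the empty vector libraries differed more from each other than the group means did (log2 fold change 0.64, edgeR adjusted p = 0.325).

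Set beside the host gene, 26 tested members could be paired with 18 tested hosts. In 24 of the 26 pairs the member and the host had the same sign, and the rank correlation over the 26 pairs was 0.76, given as a description because pairs share libraries and hosts. Outside SNHG14 it was 0.49 over 20 pairs. The median difference of log2 fold changes, member minus host, was 0.17, with a range of -0.92 to 1.30. Over all 78 pairs, in the fit of genes with 10 or more counts, 64 had the same sign and 14 opposite signs, the rank correlation was 0.73 and the median difference 0.063. Outside SNHG14, 40 of 54 pairs had the same sign, with a rank correlation of 0.43 and a median difference of -0.11. Over all 78 pairs SNORD22 in SNHG1 stood lowest, with a difference of -6.32. Among the 26 tested pairs SNORD20 in NCL stood lowest against its host. Its log2 fold change was -0.33, and that of NCL, the gene of nucleolin, was 0.59. SNORD17 was also below its host: SNX5, which encodes a sorting nexin, had 255 ± 6.55 CPM in the TAF1C-labelled libraries and 146 ± 38.5 CPM with the empty vector (log2 fold change 0.81, edgeR adjusted p = 0.0201). For each 1000 SNX5 counts there were 571, 494 and 591 SNORD17 counts in the TAF1C-labelled libraries and 1140 and 796 with the empty vector. SNORD15B was below its host RPS3, whose log2 fold change was 1.40 (edgeR adjusted p = 0.0101). HSPA8 and SNORD14E had log2 fold changes of 0.996 (edgeR adjusted p = 0.0420 for HSPA8) and 1.18. Counts over an intronic snoRNA do not tell the mature RNA from reads of the unspliced host.

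**Figure D4:**
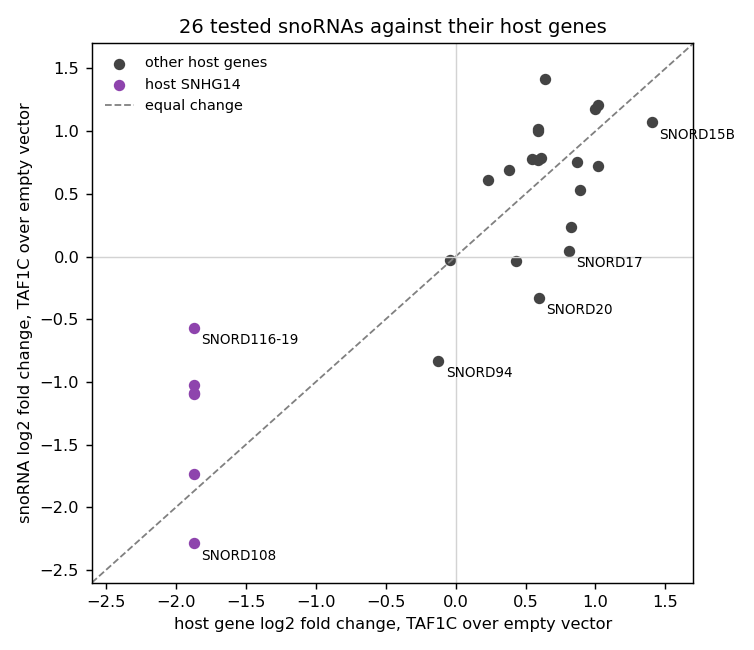
Log2 fold change of 26 tested members (vertical axis) against that of their host gene (horizontal axis), TAF1C-labelled over empty vector libraries, with the line of equal change dashed and members of SNHG14 in purple. Most members lie in the quadrants of equal sign, with SNORD17, SNORD20 and SNORD94 below the line. In SNHG14, SNORD116-6, SNORD116-13, SNORD116-14, SNORD116-18 and SNORD116-19 lie above the line, with less negative log2 fold changes than the host. SNORD116-19 lies the farthest above it, and of these only SNORD116-6 passed the test.

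U3, the most abundant C/D box RNA and the one that base pairs with the ribosomal RNA precursor, is classed as lincRNA in these tables and so was not a member. SNORD3A had 183407, 163538 and 230199 counts in the TAF1C-labelled libraries and 87995 and 153168 counts with the empty vector, and its scaled levels overlapped (log2 fold change 0.39, edgeR adjusted p = 0.401). SNORD3B-1 rose, with 4162, 3150 and 4620 counts in the TAF1C-labelled libraries and 1201 and 1444 counts with the empty vector (log2 fold change 1.30 ± 0.21 SE, edgeR adjusted p = 0.00669). SNORD3B-2, SNORD3C and SNORD3D had log2 fold changes of 0.044, -0.58 and -0.0091 and did not pass. The U3 copies are nearly identical, so their split of reads is uncertain. SNORD118 (U8) and SNORD13 (U13) were listed at 0 in all 5 libraries.

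Genes of the proteins that build and use these RNAs were read from 4 lists, in which 21 rose and 1 fell, beside 15.9% and 22.6% of all tested genes. Of the 4 tested core proteins, 1 rose: NHP2L1, the symbol used here for SNU13, with 138 ± 4.04 CPM in the TAF1C-labelled libraries and 72.7 ± 24.5 CPM with the empty vector (log2 fold change 0.92, edgeR adjusted p = 0.0217). FBL, NOP56 and NOP58 had log2 fold changes of 0.21, 0.21 and 0.43 and did not pass. Of 20 tested genes of assembly and maturation, 5 rose and 1 fell. The risers with the smallest p were RUVBL2, an AAA+ ATPase of the R2TP complex (log2 fold change 1.05, edgeR adjusted p = 0.00667), and PRPF31, a splicing factor with a Nop domain like that of NOP56 (log2 fold change 0.69, edgeR adjusted p = 0.00725). The gene that fell was FBLL1, a fibrillarin-like gene, with 0.157 ± 0.0386 CPM in the TAF1C-labelled libraries and 6.49 ± 1.09 CPM with the empty vector (log2 fold change -5.33, edgeR adjusted p = 0.000551). It met the minimum of 1 CPM in 2 libraries only through the empty vector libraries, where it is high.

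Of 19 tested genes of the trimming machinery, 6 rose and none fell, with the smallest adjusted p in the exosome nuclease gene DIS3 (log2 fold change 0.86, edgeR adjusted p = 0.0120) and the exosome subunits EXOSC1 (log2 fold change 0.66) and EXOSC3 (log2 fold change 0.67). Of 26 tested genes of the U3 processome, the particle in which U3 works, 9 rose and none fell. EMG1, a pseudouridine methyltransferase of 18S rRNA, stood at 79.9 ± 3.50 CPM in the TAF1C-labelled libraries and 39.0 ± 6.97 CPM with the empty vector (log2 fold change 1.03, edgeR adjusted p = 0.00453), and NOL6 had a log2 fold change of 1.01 (edgeR adjusted p = 0.00530). The medians of the 4 lists were 0.32, 0.48, 0.38 and 0.55, beside -0.10 for all tested genes. Without TAF1C-labelled library 1 or 3 the number that rose was 4, and without TAF1C-labelled library 2 it was 5. Of all tested genes, 5.84%, 6.48% and 5.94% rose without TAF1C-labelled library 1, 2 and 3. A fit without an empty vector library left 1 in that group, so no count is given for it.

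The other snoRNA classes are given for comparison. Of 47 tested H/ACA box snoRNAs, which guide pseudouridylation, 3 rose and 9 fell, beside 15.9% and 22.6% of all tested genes, and their median was -0.20 on the log2 scale. Of 10 tested scaRNAs of the Cajal body none rose and 4 fell, with a median of -0.66. Summed H/ACA counts were 0.0475% ± 0.00396 of all counts in the TAF1C-labelled libraries and 0.0444% ± 0.00208 with the empty vector (exact two-sided permutation p = 0.4). Differences between the C/D and H/ACA classes were not tested. Of the H/ACA core protein genes, 1 of 5 rose, GAR1 (log2 fold change 0.75, edgeR adjusted p = 0.0458). That call was lost with library totals, TMM from protein-coding genes, both other count filters and without any 1 of the TAF1C-labelled libraries.

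The minimum of 10 counts lay where numbers are small. Just inside it, with 10 counts, were SNORD64, SNORD88, SNORD127 and SNORD116-30. Just outside it, with 8 counts, were SNORD116-25, SNORD33, SNORD96B and SNORD79. SNORD33, described in lung cancer, had 0, 2 and 4 counts in the TAF1C-labelled libraries and 2 and 0 counts with the empty vector, and no difference was detectable at this depth.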

How the data were processed

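Long RNA had been isolated with the mirVana kit and depleted of ribosomal RNA before library preparation with the NEBNext kit, per the labels' protocols. The submitters' processing notes name Trimmomatic 0.36, Bowtie2 2.2.4, HISAT2, Cufflinks 2.2.1, DESeq2 and build hg19, without settings or roles. The deposited tables hold raw counts per Ensembl gene made by the authors. Intervals and floors cover counting error only. The piRNA and miRNA tables were not used here. The count tables were joined, rows of 1 symbol summed, and genes were compared by a quasi-likelihood F test (edgeR 4.0.16, R 4.3.3, TMM, at least 1 CPM in at least 2 libraries, Benjamini-Hochberg over all tested genes, two-sided, 0.05) with no covariate. SE was the log2 fold change divided by the square root of F. The script was tested on simulated data. Summed shares were compared by exact permutation in Python 3.11.15 with scipy 1.17.1.

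A host was the shortest RefSeq protein-coding or lncRNA gene of GRCh38.p14 that contains the snoRNA, matched through the row with at least 80% of its counts. Strand was not part of the match, although planned, because the gene table used gives none. In this way 82 members had a host, 78 of them in the count table.

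The members and lists were chosen with earlier results of these data known. Named were members that passed with no overlap of the groups, the 10 most abundant, snoRNAs of ribosomal RNA processing, of lung cancer and of imprinted clusters, members at the 10-count minimum, and leading genes of each list. SNORD20, SNORD37, SNORD11 and SNORD104's spread, and the marker genes at 0, were singled out after their values were seen. Alternatives were scaling by DESeq2 size factors, library totals or protein-coding genes, other low-count filters, DESeq2 1.42.0, the replicate block and leaving out each library. Tests of hosts, lists and low-count members under these were added after seeing the data. Small RNA comparisons were left out because no snoRNA or piRNA sequences could be matched. The host of 1 member is not reported here.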

Additional observations from a re-analysis of the deposited data

How the results depend on the processing

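The number of members that rose, 5, became 2 with library totals, 3 with TMM from protein-coding genes, 2 with genes of 10 or more counts and 2 with filterByExpr, and ran from 1 to 12 when 1 library was left out. Leaving out a library moved the 2 members that fell to between 0 and 4. Of all tested genes, 12.5% rose with library totals and 14.3% with TMM from protein-coding genes. With genes of 10 or more counts 3.67% rose, and with filterByExpr 7.18% rose. The upper ends of the member ranges came without empty vector library 2 for rises and without empty vector library 1 for falls. The upper ends of the gene list ranges given below came from the same fits. Each left 1 empty vector library, so these upper ends only describe those fits. The member median of 0.53 became 0.30 with library totals, -0.092 with genes of 10 or more counts and 0.062 with filterByExpr, which admit more low members, and ran from 0.23 to 0.94 when 1 library was left out. For the gene lists, the 21 that rose became 5 with genes of 10 or more counts and 11 with filterByExpr and ran from 4 to 60 when 1 library was left out. The 1 that fell became 2 with library totals and ran from 1 to 8. The difference in summed C/D share, -0.00117 percentage points, turned to 0.000423 without SNORD17 and ran from -0.00231 to -2.44e-05 when 1 library was left out. That of the H/ACA share, 0.00315, turned to -0.00120 without SNORA73B and ran from 0.00107 to 0.00502. The median of member minus host, 0.17, became 0.063 with genes of 10 or more counts, 0.057 with filterByExpr and 0.050 with the replicate block, and ran from 0.0667 to 0.249 when 1 library was left out.

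Whether replicate numbers pair the libraries could not be settled. Deviations from group means correlated at 0.0310 for number 1 and 0.128 for number 2. With 2 empty vector libraries the deviations of 1 mirror those of the other, so this check has little power. With the replicate block 1 member rose, SNORD15B, 1 fell, SNORD108, and 11 list genes rose. Of all tested genes, 7.74% rose and 14.5% fell in that fit. SNORD46 then had an adjusted p of 0.0745 (edgeR).

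SNORD17 turned sign with library totals (-0.16), TMM from protein-coding genes (-0.031), the replicate block (-0.0014) and without empty vector replicate 1 (-0.034, the lowest, with 0.10 the highest, when 1 library was left out). SNORD116-19 ran from -1.06 to 0.0058, turning without empty vector replicate 2. The cause was not tested. Most members had too few counts for a test at this depth.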
